A study of Mus musculus with 3 samples.

Results

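The protein genes of the U1 snRNP (Snrnp70, Snrpa and Snrpc) and the LUC7-like genes (Luc7l, Luc7l2 and Luc7l3) were examined for cross-linking of the splicing factor RBFOX2 in mouse hepatocytes. A cluster of cross-link positions was assigned to a gene when it lay on the gene's strand and its midpoint fell inside the gene's GENCODE M21 span on GRCm38. The 6 genes held 127 of the 87021 clusters deposited for the series and 3947 of the 2850863 counts in them, and 5 of the 6 were among the 10386 genes with a cluster.

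RBFOX2 was immunoprecipitated with the RBM9 antibody of Bethyl Laboratories from UV-irradiated primary hepatocytes of C57BL6/J mice by eiCLIP, a form of iCLIP in which each cDNA starts next to the cross-linked nucleotide. The 3 libraries formed a single group with no treatment, and the labels gave 3 livers for each, whereas the study's methods described cultures that each came from a pair of mice. The authors pooled the libraries into 1 cluster list, so no value below has a spread between libraries and no test was made. The size-matched input and the depth of each library were not analysed here.

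The U1 snRNP recognises the 5′ splice site at the start of spliceosome assembly. The proteins made from Snrnp70 (U1-70K) and Snrpa bind stem loops of the U1 RNA, the Snrpc protein stabilises its pairing with the 5′ splice site, and LUC7-like proteins associate with U1 and influence which 5′ splice sites are used. RBFOX2 is known to bind (U)GCAUG in introns next to alternative exons, and genes of splicing factors often carry retained introns or exons that expose their transcripts to nonsense-mediated decay (NMD).

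The sequences below show RBFOX motifs in the windows of clusters of Snrnp70 and Luc7l2, among them the highest cluster of Snrnp70 and an NMD exon of Luc7l2. Other high clusters had no GCATG or no readable sequence. Each is 30 bases of the transcript strand, 5′ to 3′, from the GENCODE M21 transcript sequences on GRCm38, with GCATG, the DNA form of GCAUG, in capitals. All Snrnp70 positions are on the minus strand of chromosome 7 and all Luc7l2 positions on the plus strand of chromosome 6. The first site overlaps the start of the highest cluster of all 6 genes (424 counts), and the next lies in a cluster of 94 counts in exon 3.
Snrnp70 intron 7, chr7:45382599-45382628: gctccccaaagtGCATGgattggggttcag
Snrnp70 exon 3, chr7:45392259-45392288: cccgggaagaacGCATGgagagaaaggtat
Snrnp70 intron 7, chr7:45382336-45382365: gcccctcctggaGCATGgggagcattcttt
Snrnp70 intron 7, chr7:45381584-45381613: tcaggcagggctGCATGccctgctggccat
Luc7l2 intron 1, chr6:38570314-38570343: tagactgcaactGCATGctgtctaaaatag
Luc7l2 NMD exon, chr6:38565657-38565686: gttgatcacataGCATGgtcatccactcac

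The 4 sites that follow lie in a tandem repeat of Snrnp70 intron 7, whose copies are 57 nt apart. The sequence ending in gtgtggag is the same 30 bases in each copy. The repeat was singled out after its values were seen.
Snrnp70 repeat, chr7:45381228-45381257: ggtgtctagggtGCATGcctgggtgtggag
Snrnp70 repeat, chr7:45381244-45381273: cctcctgcctcaGCATGgtgtctagggtgc
Snrnp70 repeat, chr7:45381171-45381200: ggtgtctagggtGCATGcctgggtgtggag
Snrnp70 repeat, chr7:45381187-45381216: gcctcctgcccaGCATGgtgtctagggtgc

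Snrnp70 carried most of the clusters. The gene (ENSMUSG00000063511.11, chromosome 7, 45376453 to 45395742, minus strand) held 65 clusters with 2389 counts, that is 51.2% of the clusters and 60.5% of the counts of the 6 genes. Each count was taken to be a cDNA start pooled over the libraries, which no source states outright. Its clusters ranged from 10 counts, the minimum of the list, to 424, with a median of 21. For comparison, 41% of all protein-coding genes had a cluster, and those that did had a median of 3 clusters and 63 counts. By summed count Snrnp70 ranked 105 among the 10386 genes with a cluster.

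The other U1 snRNP genes had few clusters or none. Snrpa (ENSMUSG00000061479.15, chromosome 7, 27187005 to 27196271, minus strand) held 5 clusters with 66 counts and ranked 4598. Snrpc (ENSMUSG00000024217.10, chromosome 17, 27838150 to 27851968, plus strand) held 0 clusters. The list only holds clusters of at least 10 counts, so Snrpc may have cDNA starts below that minimum.

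Among the LUC7-like genes, Luc7l2 stood highest. It (ENSMUSG00000029823.16, chromosome 6, 38551334 to 38609470, plus strand) held 44 clusters with 1172 counts and ranked 259. Luc7l3 (ENSMUSG00000020863.15, chromosome 11, 94287890 to 94321988, minus strand) held 10 clusters with 276 counts and ranked 1447. Luc7l (ENSMUSG00000024188.16, chromosome 17, 26252896 to 26285504, plus strand) held 3 clusters with 44 counts and ranked 5652. None of these clusters lay in another gene on the same strand, and the opposite strand held 0 clusters in all 6 gene spans.

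Snrnp70 and Luc7l2 also led per length of gene. Snrnp70, with a span of 19.3 kb, had 33.7 clusters per 10 kb (exact Poisson 95% interval 26 to 42.9), and the other 5 genes together had 4.19 (3.21 to 5.37). These intervals, and the Wilson intervals of shares given below, cover counting error only, and neighbouring clusters of 1 gene are not replicates. Luc7l2 followed with 7.57 clusters per 10 kb (5.5 to 10.2) and Snrpa with 5.4 (1.75 to 12.6), and these intervals overlapped. Luc7l3 had 2.93 (1.41 to 5.39) and Luc7l 0.92 (0.19 to 2.69), and for Snrpc the upper limit was 2.67. The median over protein-coding genes with a cluster was 1.21. Among the 1963 protein-coding genes with at least 10 clusters, 52 including Snrnp70 itself were at least as dense. When clusters within 200 nt were merged, Snrnp70 had 10.9 merged clusters per 10 kb and the other 5 genes together had 3.38. Counts were not normalised to RNA level, so stronger cross-linking and more pre-mRNA cannot be told apart, nor in bulk cultures can more cells and more RNA per cell.

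**Figure D1:**
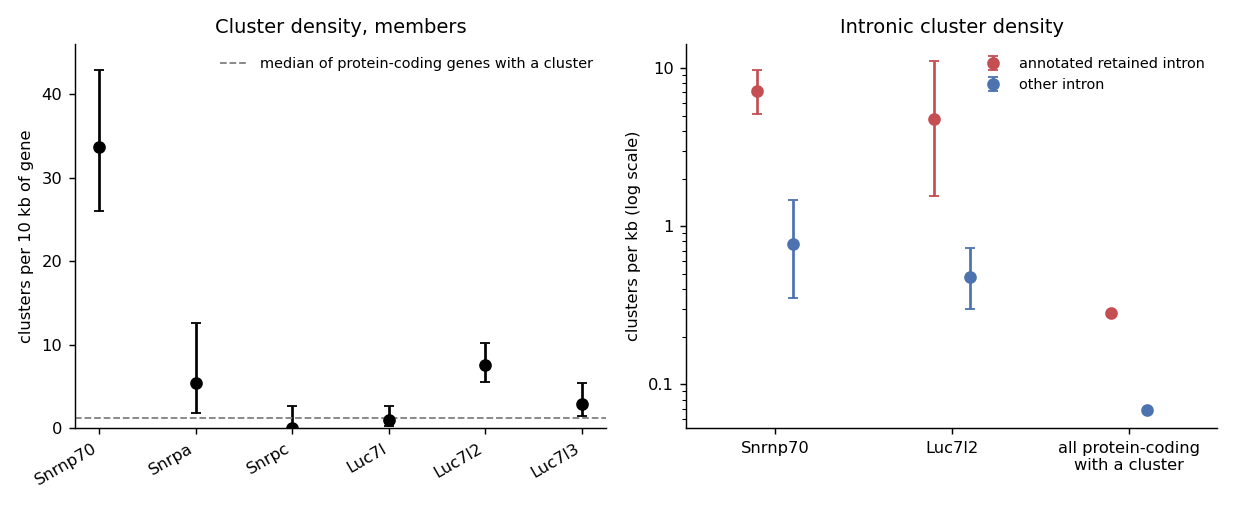
Left, clusters per 10 kb of gene span for the 6 genes with exact Poisson 95% intervals, beside the median of protein-coding genes with a cluster (dashed line, 1.21); Snrnp70 lies at 33.7 and Luc7l2 at 7.57. Right, unmerged intronic clusters per kb (log scale) in annotated retained introns (red) and other introns (blue) with exact Poisson 95% intervals. Retained introns were denser in Snrnp70, in Luc7l2 and over all protein-coding genes with a cluster, the last pooled over genes.

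Clusters with at least 39 counts numbered 13 of 65 in Snrnp70 (20%, 12.1 to 31.3%) and 7 of 62 in the other 5 genes (11.3%, 5.58 to 21.5%), against 10.2% of all clusters of the list. The highest Snrnp70 cluster (45382524 to 45382613, 424 counts) lay in intron 7 of Snrnp70-201, the principal transcript. The next (45376697 to 45376764, 163 counts) lay in the coding part of the last exon, exon 10, and the third (45392273 to 45392324, 94 counts) filled most of exon 3. Exon 10 held 6 clusters with 325 counts in all.

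The Snrnp70 clusters lay largely in introns that are annotated as retained. Introns of any kind held 49 of its 65 clusters (75.4%, Wilson 95% interval 63.7 to 84.2%), an interval that includes the 68.1% of all clusters in genes. Coding sequence held 15 and the 5′ UTR 1. An intronic base was called retained when an exon of a retained-intron transcript covered it. Retained introns held 40 Snrnp70 clusters (61.5%, 49.4 to 72.4%) with 1571 counts, and 5 of the 62 clusters of the other genes (8.06%, 3.49 to 17.5%), all 5 in Luc7l2. Over all clusters in genes the share was 4.39%. When clusters within 200 nt were merged, 6 of 21 Snrnp70 intervals lay in retained introns (28.6%).

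Annotated retained introns are a large part of Snrnp70, so clusters were also set against length. Retained sequence formed 32.4% of its intron length, against 1.67% over protein-coding genes with a cluster. Snrnp70 had 7.15 clusters per kb of retained intron (5.11 to 9.73) and 0.771 per kb of its other introns (0.353 to 1.46), a ratio of 9.27. Of its 40 clusters in retained introns, 36 lay in intron 7 and 4 in intron 4, so this ratio rests mostly on 1 intron. After merging within 200 nt, only 6 of 21 Snrnp70 intervals lay in retained introns (28.6%). The 7.15 per kb and the ratio thus depend on counting close neighbours separately, and merged clusters were not set against length. The ratio was 9.91 in Luc7l2, from 5 clusters in 1.06 kb (4.73 per kb, 1.54 to 11) against 0.478 per kb (0.299 to 0.723). With clusters and lengths summed over all protein-coding genes with a cluster, the ratio was 4.11, from 0.282 and 0.0687 clusters per kb. This pooled value also carries differences between genes, so it is a different measure from the ratios within 1 gene. Snrpc has 5.04 kb of annotated retained intron, nearly as much as the 5.6 kb of Snrnp70, without a cluster (upper limit 0.731 per kb). Snrpa, Luc7l and Luc7l3 had 0 clusters in their 1.27, 1.41 and 0.469 kb.

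By the number of clusters in annotated retained introns, Snrnp70 ranked 3 among all genes. Sorbs2, an actin-associated adaptor, had 103 such clusters among 670, and Chka, a choline kinase, had 64 among 143. After Snrnp70 came Camk2d, a calcium/calmodulin-dependent kinase subunit, with 19, and Cd2ap and Picalm, which act in endocytosis and the actin cytoskeleton, with 18 each in a tie of 5 genes. Luc7l2 ranked 82 with 5, and 1575 genes had at least 1. Retained introns took 61.5% of the clusters in Snrnp70, 44.8% in Chka and 15.4% in Sorbs2.

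**Figure D2:**
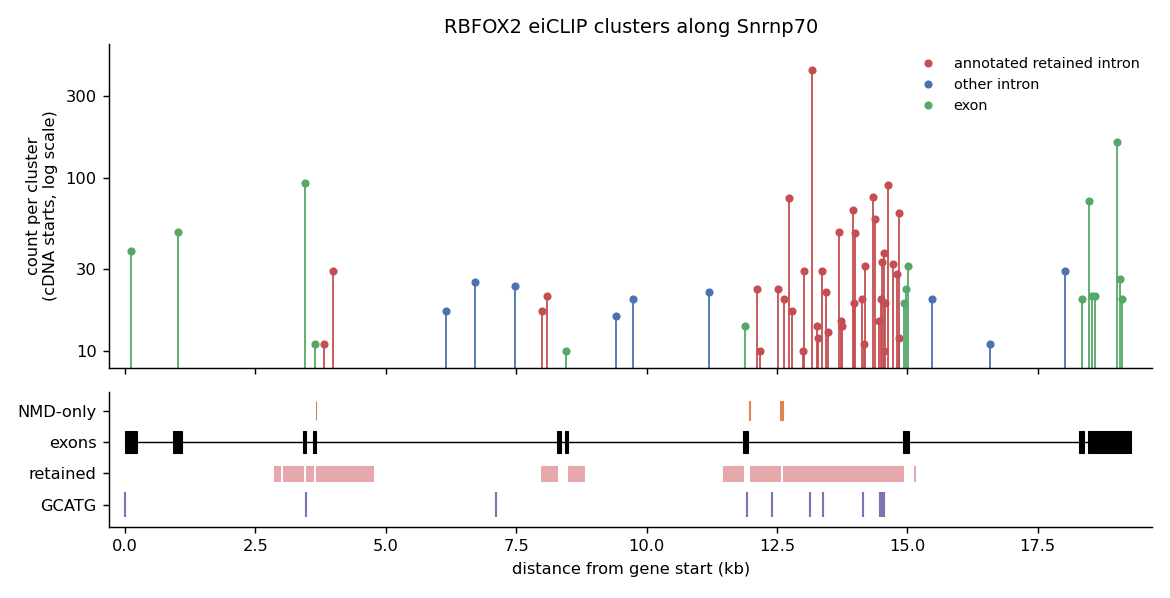
Counts of the 65 Snrnp70 clusters (log scale) against distance from the gene start, coloured by whether they lie in an annotated retained intron, another intron or an exon. Tracks show exons of the principal transcript, annotated retained introns, NMD-only exons and GCATG where transcript sequence exists; the clusters are densest in intron 7, where 36 of the 65 lie.

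Within Snrnp70, 1 intron held most of the signal. Intron 7 (45380819 to 45383803, 2985 nt) is 15.5% of the span and held 36 clusters with 1493 counts, or 62.5% of the gene's counts (60.5 to 64.4%). That interval treats each count as independent, and by number of clusters the share was 55.4% (43.3 to 66.8%). The intron was picked because it held the most counts, so setting it against the other introns is not a test. The density of intron 7 was 12.1 clusters per kb (8.45 to 16.7), against 0.892 (0.475 to 1.53) in the other introns. Those together held 13 clusters with 262 counts in 14.6 kb. Intron 4, the longest at 4625 nt, held 7 clusters with 144 counts, and introns 6 and 8, of similar length to intron 7, held 3 each with 58 and 60 counts. The 5 remaining introns held 0.

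The counts of intron 7 did not come from a single cluster. The highest held 28.4% of them and the next 92 counts, and the other 35 clusters summed to 1069 counts. The median cluster had 22.5 counts and 7 had more than 50. Most were narrow: 32 of the 36 were at most 10 nt wide (88.9%), against 18 of the 62 clusters of the other 5 genes and 39.8% of all clusters. Neighbouring clusters were a median of 44 nt apart, and joining those within 200 nt left 4 intervals.

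Intron 7 contains an alternative exon of 60 nt (45383125 to 45383184) that is annotated in the NMD transcript Snrnp70-204. Its splice sites are shown because the clusters fall on both sides of it, with the AG and the GT at its edges in capitals.
3′ splice site, chr7:45383175-45383204: tgttcttattgtcactgcAGccaccacgca
5′ splice site, chr7:45383105-45383134: tcagtgtatgGTtggtataagggtttgtat

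The exon itself held 0 clusters. The 619 nt of intron upstream of it held 3 clusters with 56 counts, and the 2306 nt downstream held 33 with 1437 counts. That is 4.85 clusters per kb upstream (0.999 to 14.2) and 14.3 downstream (9.85 to 20.1), 2 intervals that overlapped. Within 300 nt of the exon lay 1 upstream cluster (45383215 to 45383221, 23 counts) and 3 downstream clusters, at 45382989 to 45383041 (77 counts), 45383100 (20 counts) and 45382955 to 45382959 (17 counts). The highest cluster of the gene lies further downstream. All 33 downstream clusters lie in an exon of the retained-intron transcript Snrnp70-216, which begins with the 3′ splice site of the 60-nt exon (45383184) and runs on to the end of intron 7.

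No annotated transcript retained the whole of intron 7. Snrnp70-213 covers 82.1% of it with 25 clusters, Snrnp70-216 79.3% with 33, Snrnp70-215 45.6% with 14 and Snrnp70-209 16.7% with 11. A stricter setting called an intron retained only when it lay whole inside 1 exon of a retained-intron transcript. It considered introns of protein-coding transcripts alone, not those of NMD transcripts such as Snrnp70-204. Under it, the share of Snrnp70 clusters in retained introns was 0%.

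**Figure D3:**
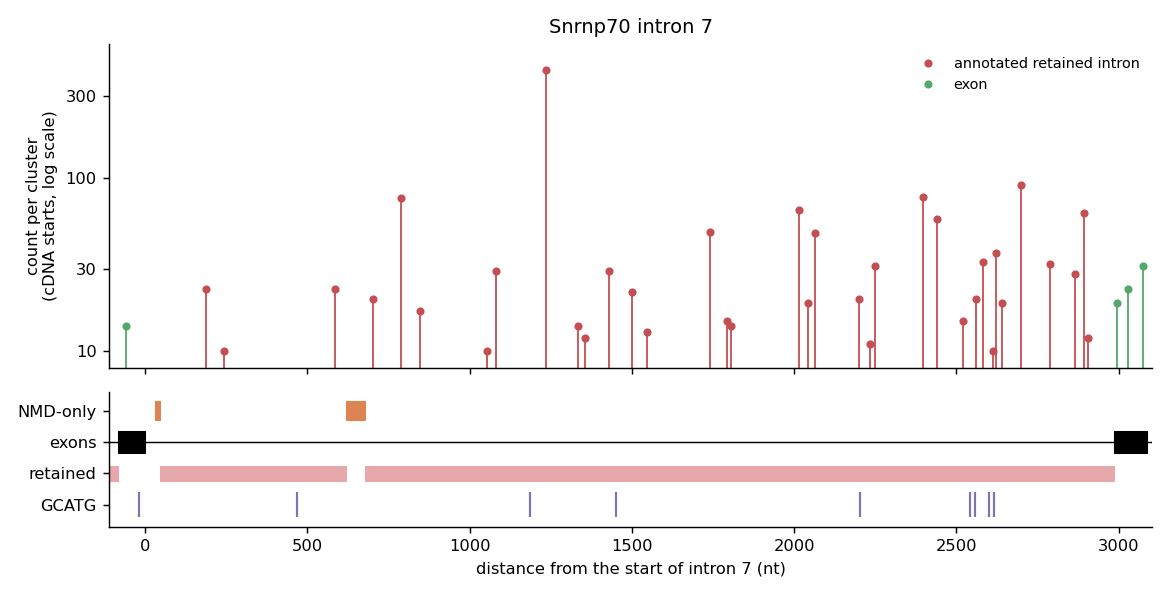
Counts of the clusters in and next to Snrnp70 intron 7 (log scale) against distance from the start of the intron. The 60-nt NMD exon lies at about 0.6 kb with no cluster inside, 3 clusters lie upstream of it in the intron and 33 downstream, and 7 of the 8 GCATG ticks in the intron lie downstream of it.

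The RBFOX motif was present in part of the intron 7 clusters. GCATG was searched on the transcript strand in windows of the cluster plus 50 nt on each side, where annotated transcripts gave the sequence, as they did for all 36 clusters here. It occurred 8 times in the intron, 4 times preceded by T, and 7 of the 8 sites lay in a window. The eighth (chr7:45383318-45383347: gtgaaatggtggGCATGtttagcacccacc) lay upstream of the 60-nt exon, 110 nt from the nearest cluster. The windows cover 73.6% of the intron, so most sites would lie in one wherever they were.

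Windows with a site numbered 11 of 36 in intron 7 (30.6%, 18 to 46.9%) and 13 of 49 in all of Snrnp70 (26.5%, 16.2 to 40.3%). For GCATG, the share over all clusters in genes with sequence was 20.2% and over those in retained introns 25.6%, both inside these intervals. TGCATG occurred in 10 of 36 intron 7 windows (27.8%, 15.85 to 43.99%) and 10 of 49 Snrnp70 windows (20.4%, 11.5 to 33.6%). Its share over all clusters in genes with sequence was 10.4%, below both intervals. Over those in retained introns it was 14.4%, below the first interval only. Those 10 windows share 4 sites, some in the tandem repeat, so they are not independent. The 11 clusters with GCATG held 649 counts, or 43.5% of the counts of the intron, of which 424 were the highest cluster. In that cluster the motif began 3 nt before the cluster's first base. A motif start within 3 nt of the cluster's 5′ end, a limit set after the offsets were seen, occurred in 4 of 49 Snrnp70 windows (8.16%, 3.22 to 19.2%). It occurred in 1 of 24 windows of the other 5 genes (4.17%, 0.739 to 20.2%) and in 1.85% of all windows. The Snrnp70 windows include those of the clusters at 45381189 and 45381242, whose sites lie in the same 30 bases of each copy of the tandem repeat.

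The windows with a motif were partly windows of the tandem repeat. The repeat (45381161 to 45381267, 107 nt) has 88% identity between its copies over 50 nt and holds 4 of the 8 sites. Of the 11 windows with a site, 5 belonged to clusters in the repeat, which had 10 to 37 counts and 119 in all. Of the 31 clusters outside the repeat, 6 had a site in their window. In 1 of these the sites were those of the repeat, so 5 windows held a site outside it, and 3 of the 5 shared the same site. Windows of these neighbouring clusters overlap and share their sites, and uniquely mapped reads can be split or lost between such copies.

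Snrnp70 windows were rich in G, a property looked at after the clusters were seen. Windows of intron 7 had a median of 34.2% G and Snrnp70 windows elsewhere 36.5%. The median was 23.8% over all clusters in genes with sequence and 24.75% over those in retained introns. Intron 7 as a whole had 29.5% G. GGGG occurred in 24 of 36 windows of intron 7 (66.7%, 50.3 to 79.8%) and in 5 of 13 elsewhere in Snrnp70 (38.5%, 17.7 to 64.5%). It occurred in 36.7% of all windows with sequence and in 40.7% of those in retained introns. The highest clusters of intron 7 without GCATG, after the 424-count cluster the 3 highest of the intron, are shown around their first base, which is in capitals. Their starts are not alike in G.
92 counts, chr7:45381092-45381121: tgcagcaatttgGccgccctggcaggaggg
78 counts, chr7:45381391-45381420: ttcctgaaggtcTttccactcctgttcatt
77 counts, chr7:45383024-45383053: aggaacagtgagGcttcccttcccacccta

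Luc7l2, a LUC7-like protein gene, had clusters in each class of annotation. Introns held 27 of 44 clusters (61.4%, 46.6 to 74.3%) and 3′ UTRs 7 (15.9%, 7.93 to 29.4%), intervals that include the 68.1% and 13.3% of all clusters in genes. The 5′ UTRs held 6 (13.6%, 6.4 to 26.7%), against 1.45% of all clusters in genes. Coding sequence held 3 (6.82%, 2.35 to 18.2%, against 14.1%) and a non-coding exon 1. Intron 1 of Luc7l2-201 (18.6 kb) spans 26 of the 44 clusters and 747 of the 1172 counts (63.7%), at 1.4 clusters per kb (0.913 to 2.05). Parts of this intron are exon in other transcripts, among them alternative first exons of the NMD transcripts Luc7l2-202 and Luc7l2-204, and 19 of the 26 clusters were classed as intron.

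The highest Luc7l2 cluster (38558121 to 38558180, 156 counts) lay in intron 1, 45 nt past the shared end of those first exons (38558075). No annotated transcript covers it, so its sequence was not read. The second (38570327 to 38570380, 95 counts) lay in a retained part of intron 1, with its midpoint 157 nt before exon 2. A TGCATG overlaps its start, with GCATG beginning 1 nt before the first base. The third (38551499 to 38551543, 48 counts) lay in the 5′ UTR.

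NMD-only exons, that is exon sequence of NMD transcripts that no protein-coding transcript has as exon, held 6 Luc7l2 clusters with 132 counts (13.6%, 6.4 to 26.7%), against 0.436% of all clusters in genes. Of these, 5 lay in the alternative first exon (2353 nt in Luc7l2-202) and had 14 to 25 counts. Those 5 are also among the 6 clusters counted above in 5′ UTRs. The other NMD-only cluster, with 38 counts (38565691 to 38565700), lay inside a 68-nt exon (38565655 to 38565722), exon 3 of Luc7l2-202, Luc7l2-204 and Luc7l2-209. A GCATG in the same exon begins 22 nt before that cluster. NMD-only exons of the other 5 genes held 0 clusters. Shares in NMD-only exons were not set against the length of such exons.

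Clusters next to alternative exons were few in both genes. In Luc7l2, 1 cluster of 10 counts lay 90 nt downstream of the 68-nt exon, and clusters of 24 and 18 counts lay 35 and 180 nt downstream of a 71-nt exon of NMD and non-coding transcripts (38568847 to 38568917). Together with the 4 clusters around the 60-nt exon, intronic clusters within 300 nt of an alternative exon made up 6.15% of Snrnp70 clusters (2.42 to 14.8%) and 4.84% of those of the other 5 genes (1.66 to 13.3%). The share over all clusters in genes was 3.26%, inside both intervals. Within 1000 nt the shares were 21.5% in Snrnp70 (13.3 to 33%) and 22.6% in the other 5 genes (14 to 34.4%), against 7.25% over all clusters in genes, and that background lay below both intervals. Within 500 nt they were 12.3% (6.37 to 22.5%) and 9.68% (4.51 to 19.6%), against 4.71%. With alternative exons taken from protein-coding transcripts alone, both counts within 300 nt were 0 (upper limits 5.58% and 5.83%), against 2.19% over all clusters in genes. Clusters annotated as exonic in another transcript also lay within that distance, with 21 and 18 counts in Luc7l2 (38555099 to 38555168 and 38557649 to 38557662) and 32 in Luc7l3.

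The end of Luc7l2 held a further group of 6 clusters with 139 counts in intron 9, at positions where shorter transcripts have their 3′ UTR. The highest of them had 44 counts (38603701 to 38603711). Exon 4 and exon 6 held 1 coding cluster each, with 27 and 25 counts.

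Luc7l3, another LUC7-like gene, had 8 of its 10 clusters from exon 6 onwards and 2, with 12 and 16 counts, in intron 1. The highest (94297005 to 94297138, 75 counts) lay in exon 8 and the next (94295508 to 94295535, 54 counts) in intron 9, 399 nt past exon 9. A pair with 32 counts each lay in exon 6 (94300012 to 94300079) and in a 3′ UTR (94293013 to 94293063). The remaining 6 clusters, those of intron 1 included, had 11 to 19 counts. None was in an annotated retained intron.

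The clusters of Snrpa and Luc7l were all below the top decile of the list. Snrpa had 16 counts in the 5′ UTR (27195956 to 27196140), 14 in intron 2 (27193662 to 27193742) and 13 in intron 6 (27187511 to 27187532), with 12 and 11 counts in 2 clusters of intron 3. Luc7l had 18 counts in a non-coding exon (26253656 to 26253673), 14 in a cluster across the end of exon 7 (26277589 to 26277725) and 12 in the 3′ UTR (26281873 to 26281964).

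**Figure D4:**
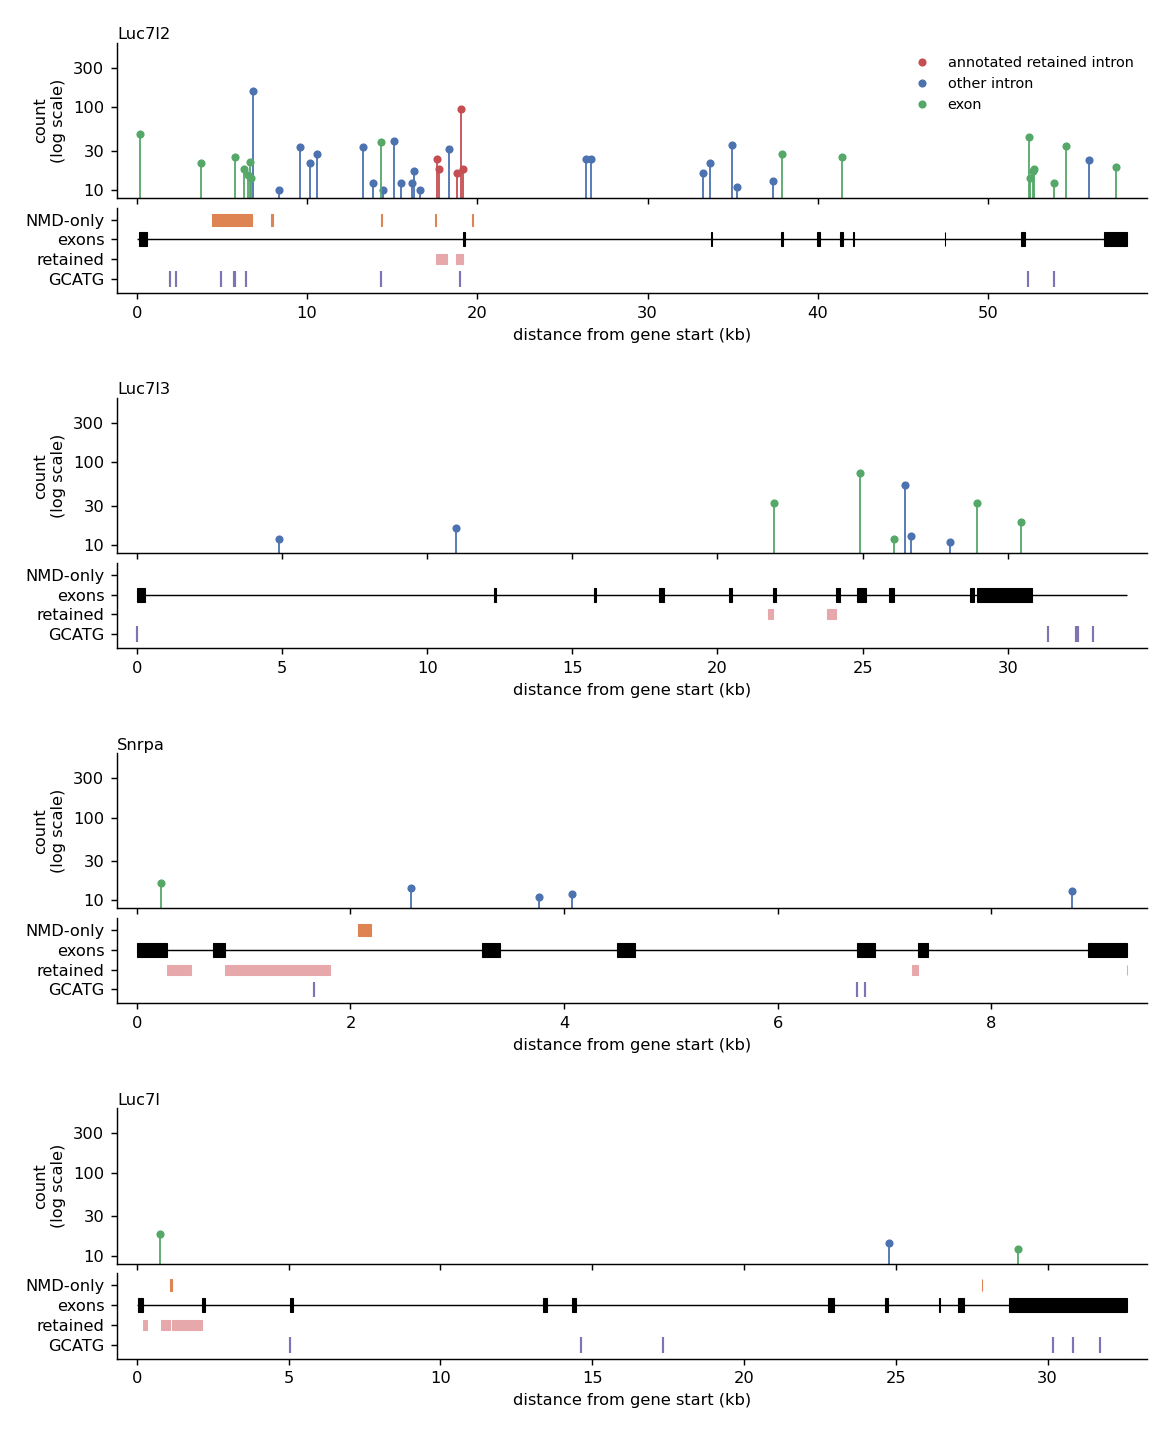
Counts per cluster (log scale) against distance from the gene start for Luc7l2, Luc7l3, Snrpa and Luc7l, with the same colours and tracks as for Snrnp70. Luc7l2 has 26 of its 44 clusters in intron 1, and the clusters of Snrpa and Luc7l stay at or below 18 counts.

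The presence of GCATG alone did not separate genes with clusters from those without. In the transcript sequence that could be read, Snrpc had 10 sites, 3 preceded by T and 6 in annotated retained introns, and no cluster. Snrpa had 3 sites, Luc7l 6 and Luc7l3 5, none of them in a cluster window. In Snrnp70, 10 of 12 sites lay in windows, which took up 52.5% of the readable sequence, or 2.45 sites per kb inside and 0.542 outside. Of those 10 sites, 4 were the sites of the tandem repeat. In Luc7l2, 5 of 10 sites lay in windows that took up 20.9%, or 1.98 per kb inside and 0.523 outside. Of the 24 readable windows of the other 5 genes, 3 held GCATG (12.5%, 4.34 to 31%), all in Luc7l2, the clusters having 95, 25 and 12 counts.

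Other spliceosome genes gave the setting for these values. In 5 lists of 42 genes, 32 had a cluster, against 41% of all protein-coding genes, with 191 clusters and 3710 counts. The median was 48.5 counts per gene with genes at 0 included, and on that basis 0 over all protein-coding genes. None had as many clusters as Luc7l2 or Snrnp70. Retained introns held 32 of the 191 clusters, in 15 of the 42 genes, against 4.39% of all clusters in genes. In the U1-associated list these were 11 of 69 clusters, in 5 genes. The most in 1 gene was 6, in U2af2, among its 22 clusters. The U1-associated list came closest: all 6 of its genes had clusters, with a median of 217 counts per gene, among them Rbm25, a U1-associated splicing regulator (430 counts in 19 clusters), and Prpf40b, a relative of a yeast U1 snRNP protein (221 in 10).

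In the U2 list, 11 of 13 genes had clusters, led by U2af2, which binds the polypyrimidine tract (448 counts in 22 clusters), and by the SF3b subunits Sf3b1 (270 in 12) and Sf3b3 (185 in 11). The U4/U6.U5 list had 8 of 10, led by Prpf8 (164 counts), Snrnp200 (160) and Eftud2 (86), core proteins of the U5 snRNP. The Sm core, the ring of proteins that U1 shares with other snRNPs, had 5 of 8, led by Snrpd3 (134), Snrpg (67) and Snrpd1 (47). Of the 5 U11/U12 genes of the minor spliceosome, Rnpc3 (81) and Snrnp48 (52) had clusters.

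The labelled cell type was checked with marker genes. Clusters were present in 7 of 8 hepatocyte markers, with 13055 counts, and the eighth, Tf, was not found under that symbol. Alb alone held 8110 of these counts, and Cyp2e1 held 1 cluster with 11. Markers of other liver cells had clusters in 3 of 12 genes, with 3 clusters and 41 counts in all. Over all protein-coding genes, 41% had a cluster. The part of such cells in the clusters above was not tested.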

How the data were processed

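RBFOX2 eiCLIP libraries (3, 1 group) were processed and pooled by the authors. Reads were trimmed with cutadapt (minimum 18 nt), aligned to GRCm38 with STAR 2.4.2a keeping unique alignments, and collapsed by random barcode; CASAVA 1.8.4 is also named in the submitters' processing notes. Cross-link positions were clustered with Paraclu. The deposited value per cluster is a whole-number count, not normalised, with a minimum of 10, taken here as pooled cDNA starts. Because libraries were pooled, depth per library is unknown.

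Clusters were annotated by midpoint with GENCODE M21 (the study used an earlier release), coding sequence taking precedence over UTRs, these over non-coding exons, and exons over introns. Retained-intron transcripts contributed no exons to this annotation. An alternative exon is an internal exon skipped by another transcript. Sequence came from annotated transcripts and was available for 73 of the 127 windows. Clusters on sequences outside the annotation (73 in all) were left out. Named were the 3 highest clusters of each member and those near alternative exons, the 3 highest genes of each list (1 is not reported here) and the 5 genes leading in retained introns; others are marked as chosen after their values were seen. The members and lists were chosen with earlier results of these data known. Python 3.11.15, numpy 2.4.6, pandas 2.3.3, scipy 1.17.1 and matplotlib 3.10.9 were used, and the scripts were tested on simulated data. Alternatives changed the count filter, merging, overlap, annotation, motif and window.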

Additional observations from a re-analysis of the deposited data

How the results depend on the processing

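Of 54 alternative values for 9 results, 32 stayed inside the interval of the value reported and 22 did not. Cluster density per 10 kb fell by construction with stricter filters, to 24.9 in Snrnp70 and 2.43 in the other 5 genes at or above the median count, and to 6.74 and 0.473 in the top 10%, with Snrnp70 higher each time. Merging clusters within 200 nt gave 10.9 intervals per 10 kb in Snrnp70 and 3.38 in the other 5, against 33.7 and 4.19 unmerged. In Snrnp70 it gave 28.6% in retained introns, 50% with GCATG (3 of 6) and 65.6% of the counts in intron 7. Merging joined the exon 8 clusters (73 counts) to the end of intron 7, so the 65.6% includes their counts. The share of counts in intron 7 was 71.5% in the top 10% of clusters and 55.4% by number of clusters. Another setting called an intron of a protein-coding transcript retained only when it lies whole in 1 retained-intron exon. It gave 0% in Snrnp70 and 0% in the other 5, because no cluster lay in such an intron. Introns of NMD transcripts were not considered under it. For the motif, GCACG gave 4.08% in Snrnp70 and 4.17% in the other 5, the reverse complement CATGC, which shares bases with GCATG wherever GCATGC occurs, gave 26.5% in Snrnp70, equal to GCATG, and 4.17% in the other 5, 20 nt flanks gave 11.3% in Snrnp70, and the top 10% gave 33.3% in the other 5 (1 of 3). For alternative exons, 1000 nt gave 21.5% in Snrnp70 and 22.6% in the other 5, exons of protein-coding transcripts gave 0% in both, and the top 10% gave 0% in the other 5. The causes of the motif and exon shifts beyond these constructions were not tested. Windows with adaptor-like heptamers, an alternative known from earlier results of these data, numbered 0 among the members.

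No paired analysis was possible because the 3 libraries form 1 group and were pooled before clusters were called, and leaving out a replicate was not possible for the same reason. Clusters below 10 counts, sequence outside annotated transcripts, and the input are outside these data as analysed here.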

Other observations

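The U1 RNA itself was looked up by gene name. Rnu1a1 held 1 cluster with 98 counts, and Rnu1b1, Rnu1b2 and Rnu1b6 held 0. The minor spliceosomal RNAs Rnu11 and Rnu12, which the same name search returned, held 1 cluster each, with 347 and 854 counts. U1 RNA genes are near-identical copies and reads were required to map uniquely, so the U1 values are uncertain.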
